A study of Mus musculus with 7 samples.

Results

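The vascular endothelial growth factor (VEGF) family was followed through 10 genes: the ligands Vegfa, Vegfb, Vegfc, Vegfd and Pgf, the receptor tyrosine kinases Flt1, Kdr and Flt4, and the neuropilins Nrp1 and Nrp2. The genes were chosen by name, with earlier results of these data known. By symbol they were matched to the Ensembl identifiers of the count table, and all 10 were found among its 54532 genes. They were read in 7 RNA sequencing libraries of PanMeso cells, a mouse mesothelial line from the pancreas that carries enhanced green fluorescent protein (eGFP). The labels of all 7 libraries give the same culture of PanMeso cells before any experiment: a mesothelial medium with serum (10%), HEPES (20 mM), epidermal growth factor (3.3 nM), hydrocortisone (400 nM) and insulin (870 nM), at 33 °C and then at 37 °C for 3 days. The parental group (n = 3) is labelled as the parental cells. The In Vivo_BMFA3 group (n = 2) and the In Vivo_CT1BA5 group (n = 2), called BMFA3 and CT1BA5 here, were eGFP-positive cells sorted from orthotopic tumours grown after injection of PanMeso cells with the pancreatic cancer cells of that name. The labels do not state the promoter behind eGFP, whether the line is a clone, which animals were hosts, or whether a sorted library pools several tumours. Only the sorted groups passed through a tumour, dissociation and sorting, so these steps and the tumour itself cannot be told apart in comparisons with parental cells.

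VEGF ligands are secreted proteins that make blood and lymph vessels grow and leak. VEGF-A acts mainly through the receptor VEGFR2 (encoded by Kdr), VEGF-B and placental growth factor (Pgf) bind VEGFR1 (Flt1), and VEGF-C and VEGF-D bind VEGFR3 (Flt4), the receptor of lymphatic endothelium. Neuropilins are co-receptors that also bind class 3 semaphorins. Mesothelium is a known source of VEGF-A in the fluids of the body cavities, and low oxygen raises Vegfa transcription through the hypoxia-inducible factors.

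On the GRCm38 (mm10) genome, GENCODE release M21 places Vegfa (ENSMUSG00000023951) on chromosome 17 from 46016993 to 46032369, Vegfc (ENSMUSG00000031520) on chromosome 8 from 54077606 to 54187096, Vegfd (ENSMUSG00000031380) on chromosome X from 164373378 to 164402650 and Kdr (ENSMUSG00000062960) on chromosome 5 from 75932827 to 75978458. The 250 bases before the RefSeq start site (GRCm38.p6) of these genes are shown because they are the promoters of the ligands that exchanged rank and of the receptor with the largest decrease. Each runs 5′ to 3′ on the gene's strand, and capitals mark matches, on either strand, to the GC box GGGCGG, the TATA box TATAAA or GCGTG, a core of the hypoxia-inducible factor motif.
Vegfa, chr17:46032378-46032627, minus strand: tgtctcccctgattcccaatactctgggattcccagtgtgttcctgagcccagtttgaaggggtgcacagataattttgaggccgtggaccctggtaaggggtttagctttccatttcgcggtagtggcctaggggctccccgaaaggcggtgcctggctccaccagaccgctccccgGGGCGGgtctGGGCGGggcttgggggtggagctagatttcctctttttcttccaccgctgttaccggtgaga
Vegfc, chr8:54077282-54077531, plus strand: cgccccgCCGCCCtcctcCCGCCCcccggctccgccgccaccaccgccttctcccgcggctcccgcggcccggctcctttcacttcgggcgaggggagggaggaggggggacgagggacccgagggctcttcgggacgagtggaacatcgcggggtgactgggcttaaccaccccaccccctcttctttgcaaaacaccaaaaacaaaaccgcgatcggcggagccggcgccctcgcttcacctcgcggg
Vegfd, chrX:164373272-164373521, plus strand: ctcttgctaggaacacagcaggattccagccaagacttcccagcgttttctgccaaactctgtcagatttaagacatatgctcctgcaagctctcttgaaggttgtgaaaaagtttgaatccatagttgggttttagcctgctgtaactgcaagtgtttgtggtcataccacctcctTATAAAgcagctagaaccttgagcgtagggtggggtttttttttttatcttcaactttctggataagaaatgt
Kdr, chr5:75978456-75978705, minus strand: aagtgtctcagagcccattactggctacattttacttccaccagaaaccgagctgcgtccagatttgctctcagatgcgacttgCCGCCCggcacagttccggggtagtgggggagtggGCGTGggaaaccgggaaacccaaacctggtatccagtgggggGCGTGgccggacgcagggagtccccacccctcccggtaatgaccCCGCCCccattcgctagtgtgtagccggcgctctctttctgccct

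The Vegfd window held a TATA box and no GC box, at 42.4% G and C, whereas the other 9 family windows held at least 1 GC box each and 59.2 to 76.4% G and C. The windows depend on the RefSeq start, which for Vegfd lay 144 bases inside the M21 gene. Its TATA box, at base -73, is therefore also inside that gene. For Flt4, Nrp1 and Pgf the starts differed by 416, 469 and 477 bases, and the whole window lay inside the M21 gene. GC boxes were present in 32.7% and TATA boxes in 12.4% of 32851 promoter windows of the same length, whose median G and C content was 52.4%. The hypoxia-inducible factor cores ACGTG and GCGTG were in 0 and 6 of the 10 family windows, against 16.6% and 28.2% of all windows. The AP-1 motif TGANTCA was in 0 of the 10 and in 6.75% of all. These matches describe letters in a short window, and the windows of Vegfa, Vegfc and Vegfd held neither hypoxia core. Bases outside the windows were not searched, so whether these genes have a hypoxia core elsewhere was not tested.

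Library totals ran from 10096839 to 19210598 counts, and log2 CPM (counts scaled to library size) of libraries within a group correlated at 0.993 to 0.996 over genes. Of 9 mesothelial markers, all were expressed in parental cells (11610 to 12700 CPM summed), and BMFA3 libraries held 1968 to 1969 CPM of them and CT1BA5 libraries 873 to 900.3 CPM. Msln, the mesothelin gene, had means of 5093 ± 169.6, 624 ± 10.4 and 409.5 ± 13.3 CPM, in the order parental, BMFA3, CT1BA5 used for every set of 3 values here. Upk3b, a uroplakin gene, had 2980 ± 206.5, 339 ± 2.74 and 20.4 ± 0.835 CPM, the keratin gene Krt19 had 989 ± 48.6, 97.2 ± 1.57 and 30.8 ± 3.63 CPM, and Gpm6a had 631 ± 15.4, 86.1 ± 0.322 and 19.8 ± 0.516 CPM. The 9 markers were 0 higher and 8 lower in BMFA3, with 1 not passing, and all 9 lower in CT1BA5 cells, and their part in the results below was not tested. All levels are CPM after TMM adjustment (trimmed mean of M values), given as mean ± SD over libraries (n = 3, 2 and 2 for parental, BMFA3 and CT1BA5), and per kilobase (kb) of annotated exon where genes are compared with each other. The labels do not say that replicates are separate cultures or tumours, so p-values measure only the spread between these libraries, which may be technical.

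The ligands changed places between cultured and sorted cells. In parental cells Vegfd was the leading ligand and made up 75.5 to 76.3% of ligand transcripts per kb, whereas Vegfa made up 8.91 to 11.4%. In BMFA3 cells Vegfa held 54.7 to 55.9% and Vegfd 10.5 to 11.7%, and in CT1BA5 cells Vegfa held 59.4 to 61.2%, Vegfc 28.3 to 31.2% and Vegfd 0.75 to 1.16%. Summed over the 5 ligands, parental libraries held 79.3 to 82.1 CPM per kb, BMFA3 libraries 80.05 to 81.9 and CT1BA5 libraries 168.3 to 170.9. The sum in BMFA3 libraries lay inside the parental range while its make-up differed.

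**Figure D1:**
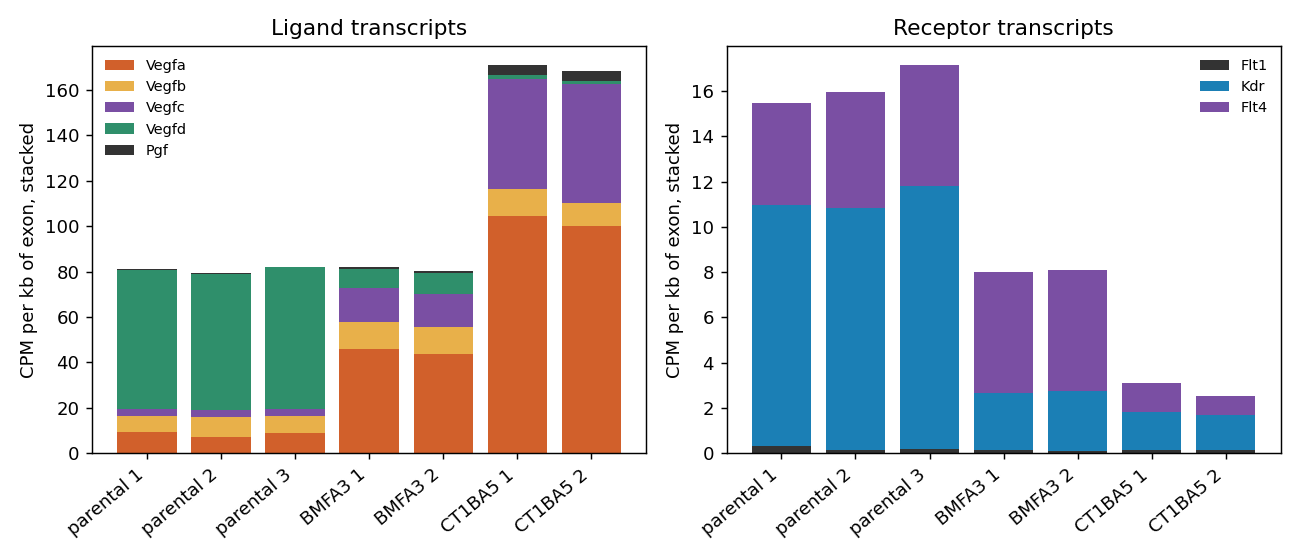
Stacked bars give the level of each VEGF ligand (left) and receptor (right) in CPM per kb of exon, 1 bar per library. Vegfd fills most of the parental ligand bars and Vegfa most of the BMFA3 and CT1BA5 bars, and the receptor bars are tallest in parental (15.5 to 17.1) and shortest in CT1BA5 libraries (2.53 to 3.08).

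Vegfa, the main growth factor for blood vessels, stood at 39.8, 30.3 and 38.0 CPM in the 3 parental libraries, 196 and 188 CPM in BMFA3 and 448 and 428 CPM in CT1BA5 libraries. The 3 groups did not overlap, and the order was parental, BMFA3, CT1BA5. Vegfa rose 5.33-fold in BMFA3 (95% interval 4.70 to 6.05; edgeR, Benjamini-Hochberg adjusted p = 9.3e-15) and 12.2-fold in CT1BA5 cells (10.7 to 13.8; adjusted p = 9.0e-18). It was 2.28-fold higher in CT1BA5 than in BMFA3 cells (2.00 to 2.61; edgeR, Benjamini-Hochberg adjusted p = 2.2e-09).

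Vegfc, which encodes a growth factor for lymphatic vessels, stood at 6.99, 7.42 and 7.16 CPM in parental, 36.7 and 35.4 CPM in BMFA3 and 118 and 129 CPM in CT1BA5 libraries. Its groups also did not overlap and followed the order of Vegfa. Vegfc rose 5.001-fold in BMFA3 (4.35 to 5.75; edgeR, Benjamini-Hochberg adjusted p = 8.5e-14) and 17.1-fold in CT1BA5 cells (15.05 to 19.5; adjusted p = 1.6e-18). The difference between the sorted groups was 3.42-fold (3.03 to 3.87; edgeR, Benjamini-Hochberg adjusted p = 1.2e-12).

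Vegfd, which encodes the relative of VEGF-C whose mouse protein binds VEGFR3, went the other way. It stood at 148, 144 and 151 CPM in parental, 20.7 and 22.5 CPM in BMFA3 and 4.79 and 3.04 CPM in CT1BA5 libraries, the last from 74 and 39 counts. Every sorted library was below every parental library, and CT1BA5 libraries were the lowest. Vegfd was 6.84-fold lower in BMFA3 (5.99 to 7.81; edgeR, Benjamini-Hochberg adjusted p = 2.3e-15) and 37.1-fold lower in CT1BA5 cells (31.1 to 44.1; adjusted p = 3.4e-18). In CT1BA5 against parental cells 149 of the 13784 tested genes had a lower log2 fold change. The ratio of Vegfc to Vegfd per kb, 0.046 to 0.051 in parental libraries, reached 1.54 to 1.74 in BMFA3 libraries and 24.3 to 41.65 in those of CT1BA5.

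Pgf, the placental growth factor gene, was low in parental cells, with 5, 11 and 7 counts (0.460, 0.8005 and 0.343 CPM). It stood at 1.95 and 1.72 CPM in BMFA3 and 11.8 and 11.99 CPM in CT1BA5 libraries. All sorted libraries lay above all parental ones, at counts of 26 to 182. Pgf rose 3.54-fold in BMFA3 (2.06 to 6.06; edgeR, Benjamini-Hochberg adjusted p = 0.000306) and 22.7-fold in CT1BA5 cells (15.1 to 34.2; adjusted p = 2.2e-11), and the wide intervals go with the few parental counts.

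Vegfb, whose protein is linked to the heart and to fat handling more than to new vessels, moved least among the ligands. It stood at 11.5, 14.6 and 12.1 CPM in parental, 19.07 and 19.02 CPM in BMFA3 and 19.2 and 16.7 CPM in CT1BA5 libraries. The sorted groups overlapped each other and lay above parental. Vegfb rose 1.498-fold in BMFA3 (1.242 to 1.81; edgeR, Benjamini-Hochberg adjusted p = 0.000672) and 1.41-fold in CT1BA5 cells (1.17 to 1.71; adjusted p = 0.00231). The CT1BA5 call was lost when library size alone was used for scaling (log2 0.27; edgeR, Benjamini-Hochberg adjusted p = 0.0801), a setting that moved the median log2 fold change of all tested genes in this comparison to -0.23.

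**Figure D2:**
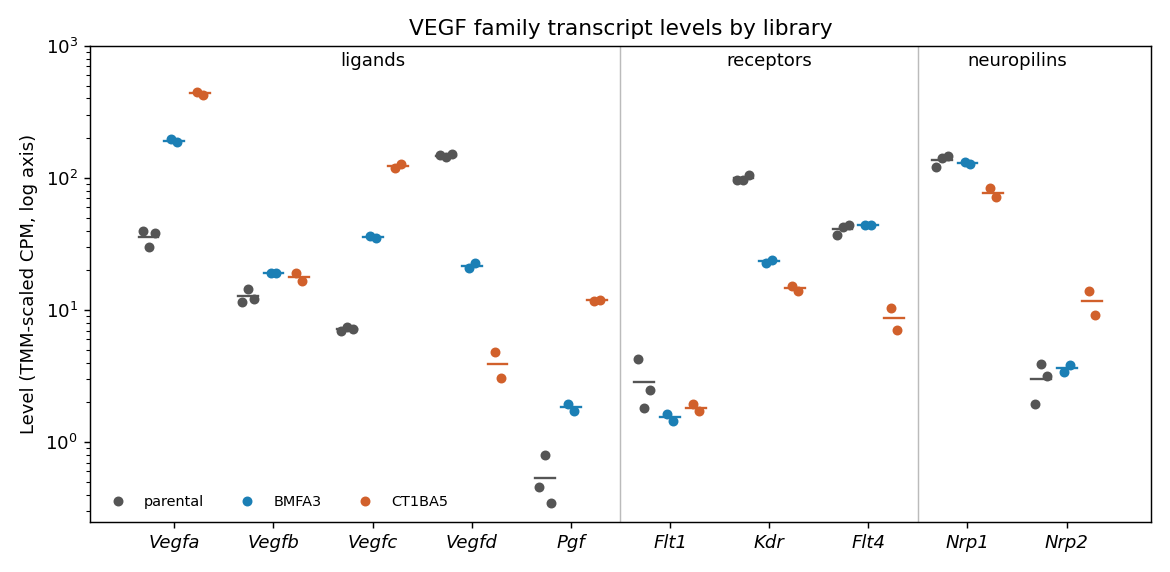
Each point is a library and each short line a group mean, on a log axis of TMM-scaled CPM, for the 10 family genes in parental (grey), BMFA3 (blue) and CT1BA5 (orange) cells. Vegfa, Vegfc and Pgf climb from parental to CT1BA5, while Vegfd and Kdr descend, with Vegfd at 148 ± 3.45, 21.6 ± 1.29 and 3.91 ± 1.238 CPM.

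Among the receptors, Kdr and Flt4 were expressed by parental cells, and summed with Flt1, parental libraries held 15.5 to 17.1 CPM per kb, BMFA3 libraries 8.02 to 8.10 and CT1BA5 libraries 2.53 to 3.08. Kdr, the gene of VEGFR2, the main signalling receptor for VEGF-A, stood at 96.3, 96.5 and 105 CPM in parental, 22.9 and 23.8 CPM in BMFA3 and 15.2 and 13.9 CPM in CT1BA5 libraries. None of the groups overlapped. Kdr was 4.26-fold lower in BMFA3 (3.77 to 4.81; edgeR, Benjamini-Hochberg adjusted p = 4.3e-14) and 6.81-fold lower in CT1BA5 cells (5.97 to 7.76; adjusted p = 7.9e-16). CT1BA5 cells were 1.60-fold below BMFA3 cells (1.37 to 1.86; edgeR, Benjamini-Hochberg adjusted p = 2.1e-05).

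Flt4 (ENSMUSG00000020357), the gene of VEGFR3, separated the sorted groups. It stood at 37.1, 42.3 and 43.8 CPM in parental, 44.10 and 44.14 CPM in BMFA3 and 10.4 and 7.09 CPM in CT1BA5 libraries. BMFA3 libraries lay just above the parental range and CT1BA5 libraries far below both. The change in BMFA3 cells did not pass the test (1.07-fold, 95% interval 0.917 to 1.25; edgeR, Benjamini-Hochberg adjusted p = 0.451). In CT1BA5 cells Flt4 was 4.67-fold below parental (3.85 to 5.67; adjusted p = 1.2e-11) and 5-fold below BMFA3 (4.08 to 6.13; edgeR, Benjamini-Hochberg adjusted p = 5.5e-11). Per kb, Kdr exceeded Flt4 by 2.08 to 2.37 times in parental and 1.34 to 1.79 times in CT1BA5 libraries, and in BMFA3 libraries Flt4 exceeded Kdr by 2.04 to 2.11 times.

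Flt1, the gene of VEGFR1, which binds VEGF-A tightly and can act as a decoy, was near the lower end of tested genes, with 22 to 51 counts in a library. It stood at 4.23, 1.82 and 2.50 CPM in parental, 1.65 and 1.46 CPM in BMFA3 and 1.94 and 1.71 CPM in CT1BA5 libraries. The BMFA3 libraries lay below the parental ones and the CT1BA5 libraries overlapped them. Neither change passed the test, at 1.78-fold lower in BMFA3 (1.06 to 3.00; edgeR, Benjamini-Hochberg adjusted p = 0.0535) and 1.51-fold lower in CT1BA5 cells (0.90 to 2.54; adjusted p = 0.143). The BMFA3 value passed without parental replicate 2 (log2 -1.06, edgeR, Benjamini-Hochberg adjusted p = 0.0202), without CT1BA5 replicate 2 (log2 -0.83, 0.0499) and with no count filter (log2 -0.83, 0.0279). With library size alone both passed (log2 -0.91 and -0.83, edgeR, Benjamini-Hochberg adjusted p = 0.0368 and 0.0454), within a range of 0.0202 to 0.227 and 0.0454 to 0.496 over 12 alternatives.

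**Figure D3:**
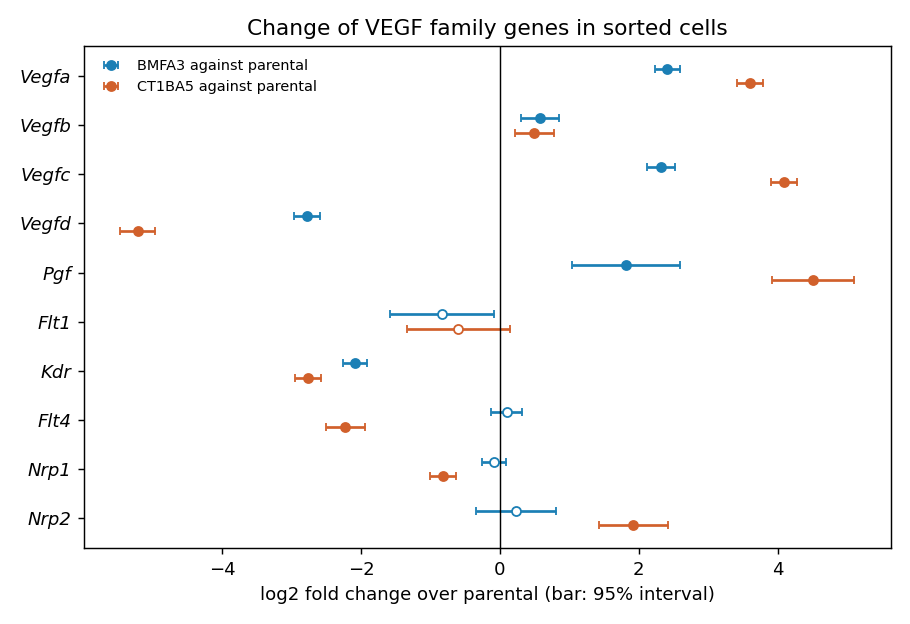
Points give the log2 fold change over parental cells of each family gene in BMFA3 (blue) and CT1BA5 (orange) cells, with 95% intervals from the edgeR fit. Filled points passed an adjusted p of 0.05, which leaves Flt1 open in both groups and Flt4, Nrp1 and Nrp2 open in BMFA3.

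The neuropilins were dominated by Nrp1, a co-receptor for VEGF-A and semaphorins, which made up 97.8 to 98.7% of neuropilin transcripts per kb in parental libraries, 97.6 to 97.9% in those of BMFA3 and 87.9 to 90.4% in those of CT1BA5. Nrp1 stood at 121, 141 and 148 CPM in parental, 132 and 127 CPM in BMFA3 and 83.9 and 71.3 CPM in CT1BA5 libraries. BMFA3 libraries fell inside the parental range and CT1BA5 libraries below it. The value in BMFA3 was 1.06-fold lower (0.937 to 1.20; edgeR, Benjamini-Hochberg adjusted p = 0.41) and did not pass, and Nrp1 was 1.76-fold lower in CT1BA5 cells (1.55 to 2.01; adjusted p = 9.0e-08). Against BMFA3 cells it was 1.66-fold lower in CT1BA5 (1.45 to 1.91; edgeR, Benjamini-Hochberg adjusted p = 2.9e-06). The microRNA gene Mir1903 overlaps Nrp1 exons.

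Nrp2, a co-receptor for VEGF-C and of lymphatic vessels, had 21 to 65 counts in parental and BMFA3 libraries. It stood at 1.93, 3.93 and 3.19 CPM in parental, 3.41 and 3.84 CPM in BMFA3 and 14.0 and 9.19 CPM in CT1BA5 libraries. Parental and BMFA3 libraries overlapped, and both CT1BA5 libraries were higher. Nrp2 did not pass in BMFA3 (1.17-fold higher, 0.787 to 1.75; edgeR, Benjamini-Hochberg adjusted p = 0.49) and rose 3.78-fold in CT1BA5 cells (2.68 to 5.34; adjusted p = 5.5e-07). The difference between the sorted groups was 3.22-fold (2.21 to 4.70; edgeR, Benjamini-Hochberg adjusted p = 2.1e-05).

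Counted together, all 10 genes passed the filter on low counts and were tested. In BMFA3 against parental cells 4 were higher, 2 lower and 4 did not pass, where 59% of all tested genes were called (29.2% higher and 29.9% lower). In CT1BA5 against parental cells 5 were higher, 4 lower and 1 did not pass, where 70.7% of tested genes were called (35.5% higher and 35.1% lower). Between CT1BA5 and BMFA3 cells 4 were higher, 4 lower and 2 did not pass, against 50.8% called (25.5% higher and 25.3% lower). So many genes were called that these counts by themselves set the family little apart. The median absolute log2 fold change of the 10 genes was 1.33, 2.50 and 1.44 in these comparisons, and 0.42, 0.60 and 0.38 over all tested genes. The family was chosen with earlier results of these data known, so these sizes describe the chosen genes and are no independent support. Groups did not overlap for 8, 9 and 9 of the 10 genes, against 73.8%, 78.4% and 74.5% of tested genes. The comparisons with parental cells share the parental libraries.

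Within a group, the order of levels per kb shows which neighbours stood apart. In parental cells the order was Vegfd (61.4 ± 1.43 CPM per kb), Nrp1 (14.0 ± 1.41), Kdr (11 ± 0.55), Vegfa (8.41 ± 1.18), Vegfb (7.92 ± 1.01), Flt4 (4.99 ± 0.428), Vegfc (2.94 ± 0.0883), Nrp2 (0.255 ± 0.0853), Flt1 (0.211 ± 0.0921) and Pgf (0.184 ± 0.0818). Vegfa and Vegfb lay within a SD of each other, as did Nrp2, Flt1 and Pgf. In CT1BA5 cells it was Vegfa (102 ± 3.30), Vegfc (50.4 ± 2.98), Vegfb (11.2 ± 1.09), Nrp1 (7.93 ± 0.909), Pgf (4.09 ± 0.0531), Vegfd (1.62 ± 0.514), Kdr (1.61 ± 0.099), Flt4 (1.06 ± 0.28), Nrp2 (0.981 ± 0.29) and Flt1 (0.135 ± 0.0119). Vegfd and Kdr could not be separated there, nor could Flt4 and Nrp2. BMFA3 cells had Vegfa first (44.8 ± 1.40) and Flt1 last (0.115 ± 0.00978), with Flt4 (5.36 ± 0.00264) above Kdr (2.59 ± 0.0693).

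Because Kdr, Flt1 and Flt4 also mark endothelium, endothelial transcripts were checked beside them. Of 13 blood endothelial markers, Tie1 and Cldn5 had 0 counts in every library, Cdh5, the gene of VE-cadherin, at most 2 counts and Pecam1 at most 5. Only Esam and Egfl7 had enough counts to be tested, and the list summed to 72.1 to 87.5 CPM in parental libraries, 47.2 to 48.8 CPM in those of BMFA3 and 38.4 to 42.75 CPM in those of CT1BA5. Esam, an adhesion molecule gene, held most of that sum and fell, at 76.6 ± 6.64, 42.8 ± 0.709 and 31.8 ± 0.49 CPM. Egfl7, a gene of a secreted endothelial protein, went the other way at 2.11 ± 0.969, 4.03 ± 0.0155 and 8.26 ± 3.63 CPM, higher in BMFA3 and CT1BA5 than in parental cells and in CT1BA5 than in BMFA3 cells (edgeR, Benjamini-Hochberg adjusted p = 0.0333, 1.9e-05 and 0.0107). Its BMFA3 call was lost without parental replicate 1 or either BMFA3 library (edgeR, Benjamini-Hochberg adjusted p = 0.125, 0.0993 and 0.102). The call between the sorted groups was lost without either BMFA3 library or CT1BA5 replicate 2 (edgeR, Benjamini-Hochberg adjusted p = 0.0537, 0.054 and 0.261). The part of these markers in the receptor values was not tested. Of 4 lymphatic markers none was tested, and Prox1, the lymphatic master regulator, had at most 4 counts and Lyve1 at most 12, while Ccl21a was at 0. The lymphatic list summed to 0.437 to 0.834 CPM in parental libraries, 0.199 to 0.426 CPM in those of BMFA3 and 0.311 to 0.324 CPM in those of CT1BA5. In bulk samples, fewer expressing cells and less RNA per cell cannot be told apart.

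Vegfa is a target of the hypoxia-inducible factors, and its order across the groups was set beside that of oxygen-sensing genes. Of 9 such genes, 5 were higher, 3 lower and 1 did not pass in BMFA3 against parental cells. In CT1BA5 cells 4 were higher, 4 lower and 1 did not pass (list medians log2 0.27 and -0.14, all tested genes 0.005 and 0). Of all tested genes, 29.2% were called higher and 29.9% lower in BMFA3, and 35.5% and 35.1% in CT1BA5 cells. Hif1a, an oxygen-regulated subunit of these factors, stood at 139 ± 4.12, 842 ± 16.5 and 510.4 ± 26.1 CPM. Egln1, a prolyl hydroxylase that marks it for decay, stood at 63.5 ± 2.50, 183 ± 2.37 and 146 ± 0.224 CPM, and Egln3, of the same kind, at 31.4 ± 6.44, 82.9 ± 1.08 and 43.2 ± 2.80 CPM. Of the other factor subunits, Epas1 and Hif3a were lower in both sorted groups. Epas1 stood at 8.03 ± 0.242, 3.42 ± 0.425 and 1.06 ± 0.511 CPM and Hif3a at 26.4 ± 1.77, 7.74 ± 0.865 and 2.67 ± 0.70 CPM. Arnt stood at 94.1 ± 5.31, 114 ± 0.814 and 85.75 ± 5.08 CPM. It was higher in BMFA3 and did not pass in CT1BA5 cells (edgeR, Benjamini-Hochberg adjusted p = 0.00222 and 0.0972). The Egln3 call in CT1BA5 cells was lost with library size alone (log2 0.23; edgeR, Benjamini-Hochberg adjusted p = 0.0945).

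Of 14 other hypoxia-response genes, 11 were higher, 1 lower and 2 did not pass in BMFA3. In CT1BA5 cells 9 were higher, 4 lower and 1 did not pass (list medians log2 1.31 and 1.18), against the same shares of all tested genes. The lower gene in BMFA3 was no longer called without BMFA3 replicate 1, which left 0. The largest named change was in Angptl4, a lipase inhibitor gene, at 15.1 ± 1.05, 241.8 ± 7.52 and 169 ± 6.82 CPM. Pdk1, a pyruvate dehydrogenase kinase gene, stood at 40.3 ± 4.34, 181 ± 11.4 and 121 ± 3.95 CPM and Bnip3, a mitophagy gene, at 53.0 ± 6.93, 209 ± 1.47 and 157 ± 6.64 CPM. The glucose transporter gene Slc2a1 stood at 132 ± 13.0, 362 ± 8.77 and 354 ± 7.98 CPM, and Pgk1, of glycolysis, at 518 ± 56.6, 1764 ± 5.81 and 1629 ± 103 CPM. Ero1l, an oxidase of protein folding, stood at 139 ± 8.38, 409.7 ± 13.9 and 185 ± 5.20 CPM, and P4ha1, a collagen prolyl hydroxylase gene, at 479.9 ± 8.94, 911.5 ± 12.2 and 1187 ± 19.5 CPM. The 4 genes lower in CT1BA5 than in parental cells were Adm, Car9, Ankrd37 and Kdm3a. Adm, which was higher in BMFA3, stood at 1.65 ± 0.963, 3.54 ± 0.418 and 0.408 ± 0.2465 CPM. Car9 stood at 2.64 ± 0.454, 2.85 ± 0.279 and 1.005 ± 0.231 CPM. Ankrd37 stood at 3.09 ± 0.9165, 4.06 ± 0.825 and 1.55 ± 0.0974 CPM. Kdm3a stood at 61.8 ± 5.62, 50.4 ± 2.55 and 37.5 ± 1.64 CPM. Adm, Car9 and Ankrd37 had at most 63, 59 and 76 counts in a library.

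Between the sorted groups Vegfa was higher in CT1BA5 cells and most of these genes were lower. In CT1BA5 against BMFA3 cells Vegfa was higher by 1.19 ± 0.092 (SE) on the log2 scale, while of the 14 hypoxia-response genes 1 was higher, 10 lower and 3 did not pass (median -0.47). Of the 9 oxygen-sensing genes 0 were higher, 7 lower and 2 did not pass (median -0.50, all tested genes -0.006). Of all tested genes, 25.5% were called higher and 25.3% lower in this comparison. The member that was higher was P4ha1 (0.38 ± 0.068; edgeR, Benjamini-Hochberg adjusted p = 0.000105), and Hif1a was lower (-0.72 ± 0.068; adjusted p = 4.1e-08). The part of the hypoxia-inducible factors in the Vegfa values was not tested, and transcript levels do not measure their protein.

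**Figure D4:**
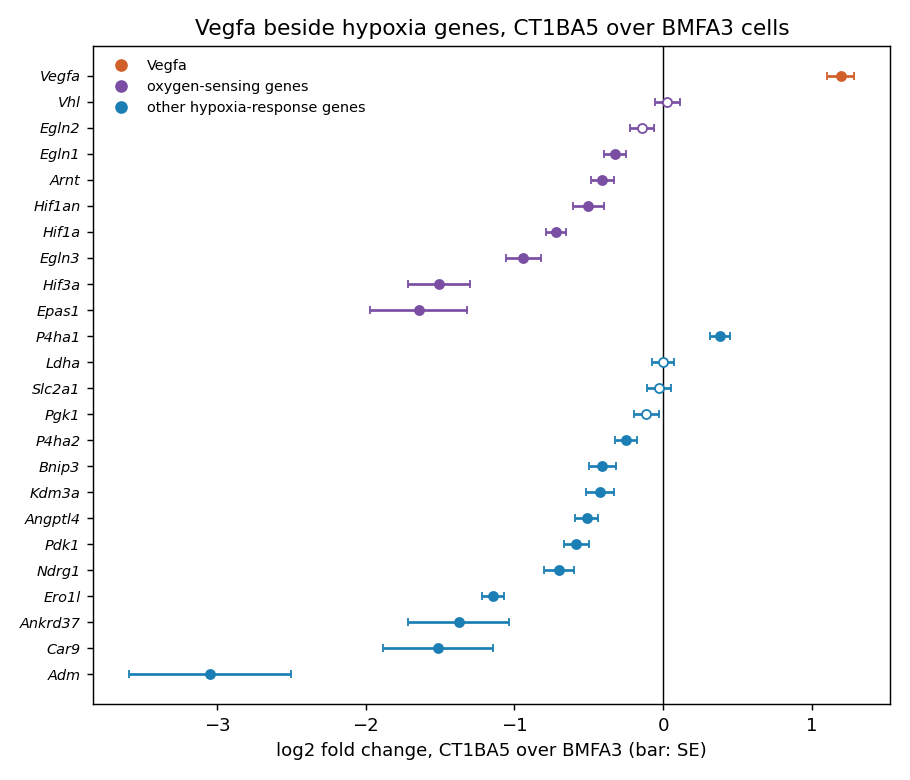
Points give the log2 fold change of CT1BA5 over BMFA3 cells with its SE for Vegfa (orange), 9 oxygen-sensing genes (purple) and 14 other hypoxia-response genes (blue), filled where the adjusted p was under 0.05. Vegfa sits at 1.19, to the right of all 23 other genes, of which 17 were lower in CT1BA5 cells.

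Genes that release or mature the ligands did not move as a block. VEGF-C and VEGF-D are secreted as precursors that proteases trim, and part of VEGF-A is held by heparan sulphate in the matrix. Of all tested genes, 29.2% were called higher and 29.9% lower in BMFA3, and 35.5% and 35.1% in CT1BA5 cells. Of 11 genes of these steps, 5 were higher, 4 lower and 2 did not pass in BMFA3. In CT1BA5 cells 4 were higher, 4 lower and 3 did not pass (medians log2 0.38 in BMFA3 and -0.08 in CT1BA5). Without BMFA3 replicate 1, 3 were higher in BMFA3. Ccbe1, which encodes a cofactor of VEGF-C cleavage, stood at 0.094 ± 0.092, 0.315 ± 0.071 and 4.99 ± 0.997 CPM, with an adjusted p against parental of 7.4e-09 in CT1BA5 and 0.0896 in BMFA3 cells (edgeR, Benjamini-Hochberg). It was also higher in CT1BA5 than in BMFA3 cells (edgeR, Benjamini-Hochberg adjusted p = 1.2e-06). Furin, a proprotein convertase gene, rose from 76.1 ± 4.31 to 239.5 ± 2.09 and 354 ± 30.4 CPM. The gelatinase gene Mmp9 had 0 counts in parental libraries and was at 8.45 ± 1.27 and 659 ± 18.4 CPM in BMFA3 and CT1BA5 cells. Plau, the urokinase gene, stood at 70.1 ± 4.78, 67.6 ± 0.334 and 134 ± 6.55 CPM, Ctsd at 1134 ± 53.5, 705 ± 1.13 and 1072 ± 78.0 CPM and Pcsk5 at 9.63 ± 1.34, 3.11 ± 0.937 and 7.55 ± 1.31 CPM. The 4 genes lower in CT1BA5 than in parental cells were Adamts3, Hpse, Hspg2 and Pcsk7 (log2 -2.14, -1.06, -1.03 and -0.39). Adamts3 stood at 5.34 ± 1.20, 8.69 ± 1.32 and 1.22 ± 0.291 CPM. It was lower in CT1BA5 than in parental and BMFA3 cells (edgeR, Benjamini-Hochberg adjusted p = 2.1e-06 and 1.7e-07).

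Class 3 semaphorins, a family that includes the other ligands of neuropilins, split the sorted groups. Of 7 genes 6 were tested (Sema3g had at most 5 counts). In BMFA3 cells 3 were higher, 2 lower and 1 did not pass. In CT1BA5 cells 0 were higher, 5 lower and 1 did not pass. All 6 were lower in CT1BA5 than in BMFA3 cells (medians of these comparisons log2 0.12, -2.80 and -1.48). Of all tested genes, 29.2% were called higher and 29.9% lower in BMFA3, and 35.5% and 35.1% in CT1BA5 cells. Between the sorted groups 25.3% were lower in CT1BA5 cells. Sema3c stood at 841 ± 18.2, 773 ± 11.2 and 66.7 ± 4.63 CPM, and Sema3a, a repellent of growing axons, at 230.6 ± 5.90, 314 ± 5.34 and 49.0 ± 2.39 CPM. Sema3d and Sema3e fell in both sorted groups, from 141 ± 8.37 to 42.0 ± 0.0132 and 13.7 ± 0.745 CPM and from 115 ± 5.58 to 21.7 ± 3.44 and 11.04 ± 1.96 CPM. Sema3b stood at 7.55 ± 1.16, 14.3 ± 1.71 and 5.72 ± 1.05 CPM, and its lower value in CT1BA5 than in parental cells passed only with library size alone, without parental replicate 1 or without CT1BA5 replicate 2 (edgeR, Benjamini-Hochberg adjusted p = 0.00475, 0.0356 and 0.027, against 0.0616). The value of Sema3c in BMFA3 (edgeR, Benjamini-Hochberg adjusted p = 0.109) passed with library size alone (0.0142) and without CT1BA5 replicate 1 (0.048).

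**Figure D5:**
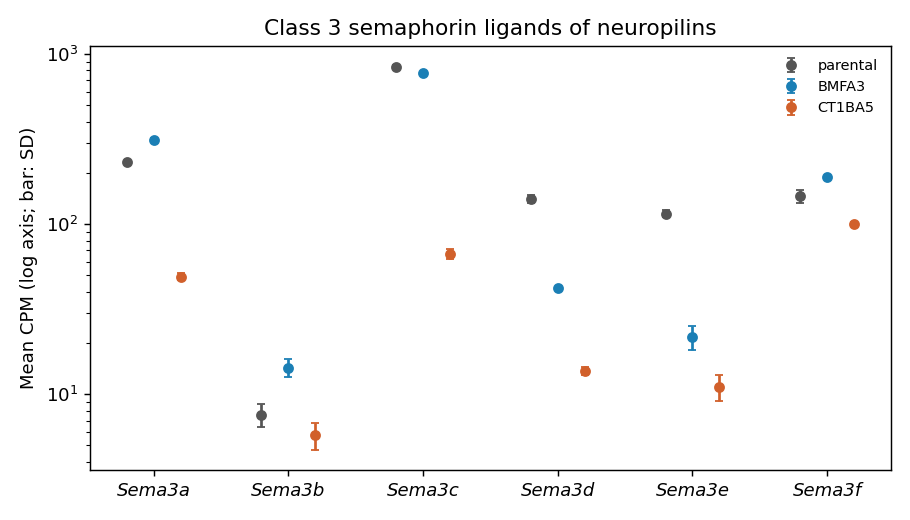
Points give the mean and bars the SD of 6 class 3 semaphorin genes in CPM on a log axis, by group. The CT1BA5 points (orange) lie below the BMFA3 points (blue) for all 6 genes, with Sema3c at 66.7 against 773 CPM.

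Of 7 neuropilin partners, plexins and adaptors that carry the signal inside, 6 were tested (L1cam had at most 13 counts). In BMFA3 cells 2 were higher, 2 lower and 2 did not pass, and in CT1BA5 cells 3 were higher and 3 lower (medians log2 -0.02 and 0.05). Beside this list and the next, 29.2% of all tested genes were higher and 29.9% lower in BMFA3, and 35.5% and 35.1% in CT1BA5. Plxna4 stood at 61.3 ± 8.43, 11.3 ± 1.03 and 40.6 ± 9.88 CPM, Plxna2 at 12.8 ± 1.32, 4.92 ± 1.23 and 1.26 ± 0.314 CPM and Plxna1 at 173 ± 6.70, 162 ± 2.99 and 118 ± 23.1 CPM. Plxna3, Plxnd1, the receptor gene for Sema3e, and Gipc1, an adaptor that binds the neuropilin tail, were higher in CT1BA5 than in parental cells, at 7.48 ± 0.842 against 12.5 ± 2.57, 11.5 ± 0.903 against 21.2 ± 2.63 and 87.3 ± 4.996 against 137 ± 3.88 CPM. Of 16 genes that act below VEGF receptors, 12 were tested, of which 5 were higher, 3 lower and 4 did not pass in BMFA3 and 4 were higher, 4 lower and 4 did not pass in CT1BA5 cells (medians log2 -0.13 and 0.06). Without CT1BA5 replicate 1 and without CT1BA5 replicate 2 the number lower in BMFA3 was 6 and 5, and with library size alone it was 7. Dab2, an endocytic adaptor gene, fell from 381.5 ± 17.4 to 232 ± 0.231 and 124 ± 14.5 CPM and Shb, an adaptor of VEGFR2, from 79.9 ± 2.44 to 56.7 ± 2.19 and 38.7 ± 3.41 CPM. Pxn rose from 166 ± 14.9 to 273 ± 1.51 and 276 ± 12.4 CPM and Src from 76.3 ± 0.661 to 105 ± 1.28 and 113.5 ± 4.05 CPM. Plcg1 stood at 48.8 ± 2.01, 57.9 ± 0.866 and 83.4 ± 0.153 CPM and Efnb2 at 201.7 ± 7.16, 309.8 ± 2.59 and 102 ± 6.12 CPM. The Plcg1 call in BMFA3 (edgeR, Benjamini-Hochberg adjusted p = 0.0055) was lost without BMFA3 replicate 1 (0.0569) and with library size alone (0.0522).

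Genes whose pattern lay nearest to Vegfa and Nrp1 were found among 9095 candidates whose mean reached 10 CPM, by the root mean square distance of centred log2(CPM + 1) over the 7 libraries. Nearest to Vegfa were Myl9 (distance 0.153), Lhfpl2 (0.158), Itga5 (0.17), Gfpt2 (0.186) and Gpc1 (0.192), where the median gene lay at 1.54. Itga5, the fibronectin receptor subunit, stood at 148.5, 645 and 1619 CPM. Among those nearest to Nrp1 were Dcbld2 (0.0578), Parp4 (0.059), Chd1 (0.0627) and Akap11 (0.0629), where the median gene lay at 0.46. Dcbld2, which encodes a membrane protein related in structure to neuropilins, stood at 320.7, 294 and 185 CPM.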

How the data were processed

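Gene expression was read from raw counts per Ensembl mouse gene in a table deposited by the authors. Per the submitters' processing notes CASAVA, DESeq2 1.24.0 and mm10 were used, with no role given; the aligner, counter, annotation release and strand setting were not given in the sources used here. Symbols, positions and exon lengths came from GENCODE M21 (54495 of 54532 identifiers matched), and promoters from RefSeq on GRCm38.p6, taking the start site nearest to the M21 gene start.

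The low-count filter was filterByExpr (minimum count 10) and passed 13784 genes. All 7 libraries entered 1 fit per gene in edgeR 4.0.16 under R 4.3.3, with group as the only term and TMM factors of 0.897 to 1.08. Each comparison used edgeR's quasi-likelihood test, and Benjamini-Hochberg adjusted p-values under 0.05 over all tested genes were called. The SE is the log2 fold change divided by the square root of F, and 95% intervals use the F test's degrees of freedom. The code of the fit was also run on simulated counts. There few genes changed, and only in the CT1BA5 group, so that run does not bear on scaling where most genes are called. Alternatives were RLE scaling, library size alone, no count filter, DESeq2 1.42.0, leaving out each library and the replicate number as a block.

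The family members, gene lists and marker lists were chosen with earlier results of these data known. From each list, genes are named that were among the 4 with the smallest p in either comparison with parental cells; other named list genes were chosen after their values were seen. For Vegfa and Nrp1 the nearest genes by pattern are named, of which 1 is not reported here. The same 12 alternatives were run for the list genes named by smallest p and for list counts after the data were seen. Genes overlapping an expressed gene on the other strand (Plcg1 with Zhx3, Pcsk7 with Rnf214 and Tagln, Fgf2 with Nudt6, Csf1r with Hmgxb3, Egfl7 with Agpat2, Cxcl10 with Art3, Ankrd37 with Ufsp2, Nos3 with Atg9b) are uncertain to that extent. Levels per kb rest on the union of all annotated exons.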

Additional observations from a re-analysis of the deposited data

Results flagged for a closer look

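For 8 of the 10 family genes the difference from parental cells was not the same in CT1BA5 and BMFA3 cells: the test of CT1BA5 against BMFA3, which equals the difference of both effects, passed an adjusted p of 0.05 (edgeR, Benjamini-Hochberg). Vegfa, Vegfc, Pgf and Nrp2 were higher in CT1BA5 cells by 1.19 ± 0.092, 1.78 ± 0.084, 2.69 ± 0.26 and 1.69 ± 0.26 (log2 ± SE), and both CT1BA5 libraries exceeded both BMFA3 libraries for each. Vegfd, Kdr, Flt4 and Nrp1 were lower, with log2 differences of -2.44 ± 0.14, -0.68 ± 0.10, -2.32 ± 0.14 and -0.73 ± 0.096, again without overlap. Vegfa, Vegfc, Vegfd, Pgf and Kdr moved the same way in both sorted groups and further in CT1BA5 cells. Flt4, Nrp1 and Nrp2 passed against parental cells in CT1BA5 and not in BMFA3 cells. No group had the 4 libraries needed to look for a library far from its group.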

How the results depend on the processing

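Of 360 family gene values recomputed under 12 alternatives (3 comparisons, 10 genes), 354 stayed on their side of the threshold, 5 newly passed and 1 no longer passed. No called value changed sign, and among uncalled ones Vegfb in CT1BA5 against BMFA3 went from log2 -0.085 to 0.008 without CT1BA5 replicate 2. The 6 whose call changed were the Flt1 and Vegfb values given with those genes, and the cause was not tested. The numbers of family genes called were 6 to 7 for BMFA3 and 9 for CT1BA5 over parental, and 8 between the sorted groups, when libraries were left out in turn, and all genes called 6675 to 8621, 9045 to 9647 and 5527 to 7016. Library size alone moved the split of all calls against the main one from 4899 higher and 4844 lower to 3495 and 6280 in CT1BA5 against parental, and from 3521 and 3487 to 2371 and 4740 in CT1BA5 against BMFA3, with medians of all genes at log2 -0.23 and -0.16. Same-numbered libraries deviated together weakly or oppositely (correlations -0.226 to 0.146). Deviations within a group of 2 libraries mirror each other, so these values cannot settle whether the numbers pair libraries. The labels state no pairing, so the numbers were not taken as pairs. With the replicate number as a block the family counts stayed 6, 9 and 8, and all genes called were 7044, 8867 and 6478. The block also ended the Plcg1 call in BMFA3 (log2 0.21; edgeR, Benjamini-Hochberg adjusted p = 0.0598) and left 0 hypoxia-response genes lower in BMFA3. The calls of carcinoma markers in BMFA3 and of Cd68 in CT1BA5 were lost with it too. Of 2232 values of named list genes, 2168 kept their call, 11 newly passed and 53 no longer passed. Depth limits Pgf in parental cells (5 to 11 counts) and Flt1 (22 to 51 counts).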

Other observations

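Other regulators of vessel growth were read beside the VEGF ligands, where 29.2% of all tested genes were called higher in BMFA3 and 35.5% in CT1BA5 cells. Of 9 further angiogenic ligands 8 were tested (Angpt2 had at most 11 counts), of which 7 were higher, 0 lower and 1 did not pass in BMFA3, and 6 were higher, 0 lower and 2 did not pass in CT1BA5 cells (medians log2 1.58 and 1.73; in edgeR 1 was called lower in CT1BA5 without parental replicate 1). Pdgfb, a recruiter of pericytes, rose from 0.54 ± 0.28 to 3.45 ± 0.468 and 52.2 ± 0.379 CPM in BMFA3 and CT1BA5 cells. Fgf2 stood at 118 ± 5.17, 349 ± 0.745 and 346 ± 37.5 CPM, Ccn2 at 198 ± 8.20, 329.5 ± 3.89 and 1228 ± 64.6 CPM and Ccn1 at 274 ± 6.97, 397 ± 10.6 and 558 ± 10.6 CPM. Hgf stood at 0.255 ± 0.101, 9.56 ± 1.20 and 0.997 ± 0.419 CPM, and its CT1BA5 call was lost without CT1BA5 replicate 1 (edgeR, Benjamini-Hochberg adjusted p = 0.0799, against 0.00249).

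Of 9 genes listed here as angiogenesis inhibitors, 7 were higher, 1 lower (Adamts1) and 1 did not pass (Vash1) in BMFA3. In CT1BA5 cells 7 were higher and 2 lower (Adamts1 and Cxcl10; medians log2 1.21 and 1.93), against the same shares of all tested genes. The higher genes of both groups included Vash2 (log2 1.95 and 2.60) and Spred1 (0.51 and 0.49). Vash2, unlike its relative Vash1, is generally described as promoting vessel growth, so the list does not hold inhibitors alone. Cxcl10, a chemokine gene, stood at 49.8 ± 3.45, 57.8 ± 2.98 and 27.4 ± 0.985 CPM. Thbs1, the thrombospondin gene, rose from 468 ± 14.1 to 1296 ± 2.13 and 1783 ± 155 CPM and Thbs2 from 0.512 ± 0.251 to 8.85 ± 1.36 and 98.3 ± 10.4 CPM. Serpinf1 rose from 2.68 ± 0.56 to 16.6 ± 2.02 and 161 ± 1.58 CPM and Col18a1, the source of endostatin, from 47.7 ± 0.819 to 111 ± 6.203 and 219 ± 12.9 CPM. Adamts1 fell from 133 ± 12.9 to 24.0 ± 0.0345 and 13.0 ± 3.75 CPM.

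Markers of other cell types moved in both directions. The 8 leukocyte and macrophage markers summed to 12.3 to 15.8 CPM in parental libraries, 23.3 to 25.8 CPM in those of BMFA3 and 27.2 to 27.4 CPM in those of CT1BA5, with Ptprc and Itgam at 0 counts in every library. Of 3 tested, 2 were higher and 1 did not pass in BMFA3, and 3 were higher in CT1BA5 cells, but 1 without parental replicate 1, without CT1BA5 replicate 1 or with library size alone. The Fc receptor gene Fcgr3 had 0.286 ± 0.122, 2.80 ± 0.0766 and 8.37 ± 0.156 CPM in the 3 groups, Csf1r 3.37 ± 0.758, 8.29 ± 1.98 and 5.57 ± 0.272 CPM and Cd68 10.1 ± 1.15, 12.4 ± 0.202 and 12.8 ± 0.275 CPM. The Cd68 call in CT1BA5 (edgeR, Benjamini-Hochberg adjusted p = 0.047) was lost under most alternatives. These included no count filter (0.0873), the replicate block (0.0745) and leaving out parental replicate 3 (0.0797). Cd68 was also not called in DESeq2 (Benjamini-Hochberg adjusted p = 0.092), or when any 1 BMFA3 or CT1BA5 library was left out.

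The 6 pericyte markers summed to 81.2 to 91.8, 76.7 to 78.0 and 113 to 139.5 CPM in the same order. Of 4 tested, 1 was higher, 1 lower and 2 did not pass in BMFA3, and 4 were higher in CT1BA5 cells. Cspg4 had 0.065 ± 0.074, 0.030 ± 0.043 and 5.06 ± 0.662 CPM, Rgs5 0.138 ± 0.12, 1.52 ± 0.00088 and 1.54 ± 0.251 CPM, Mcam 34.4 ± 3.08, 16.0 ± 0.529 and 52.8 ± 3.24 CPM and Notch3 53.6 ± 2.81, 59.8 ± 0.393 and 66.7 ± 16.5 CPM. The Notch3 call in CT1BA5 (edgeR, Benjamini-Hochberg adjusted p = 0.0111) was lost without CT1BA5 replicate 1 (0.738), without parental replicate 1 (0.0594) and with library size alone (0.493), while without either CT1BA5 library Notch3 was called higher in BMFA3 (0.0424 and 0.047).

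The 6 carcinoma markers summed to 10.0 to 14.6, 9.21 to 11.2 and 6.15 to 6.46 CPM, with Epcam at no more than 5 counts. Of 4 tested, 2 were higher, 1 lower and 1 did not pass in each sorted group against parental cells. Cdh1, the E-cadherin gene, had 11.6 ± 2.85, 7.08 ± 1.02 and 0.466 ± 0.439 CPM and was lower, and Krt20 had 0.694 ± 0.359, 1.55 ± 0.0422 and 4.22 ± 0.852 CPM and was higher in both. Cldn4 was higher in CT1BA5 (0.049 ± 0.085, 0.030 ± 0.043 and 0.92 ± 0.0203 CPM) and Muc1 in BMFA3 cells (0.438 ± 0.0853, 1.36 ± 0.143 and 0.337 ± 0.256 CPM). In BMFA3 the number higher fell to 0 without BMFA3 replicate 1, and to 1 without BMFA3 replicate 2, parental replicate 2 or parental replicate 3, and the number lower to 0 without BMFA3 replicate 2. With the replicate number as a block, 0 carcinoma markers were higher and 0 lower in BMFA3. The part of these markers in the VEGF family's values was not tested.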
